A study of Mus musculus with 37 samples.

Results

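Replication-dependent histone genes were followed in immortalized cardiac fibroblasts (CFs) exposed to 5 media for 24 or 48 hours. The genes were selected on measured values: of the 69 symbols starting with Hist1h, Hist2h, Hist3h or Hist4h among 30892 genes in the CF count table, the 58 with at least 10 counts in at least 2 of the 20 libraries were kept. They comprised 6 of 6 genes for the linker histone H1, 14 of 20 for H2A, 15 of 19 for H2B, 11 of 11 for H3 and 12 of 13 for H4. By cluster, 49 lay in Hist1 (GRCm38 chr13:21715763-23764406), 7 in Hist2 (chr3:96220361-96270132) and 2 in Hist3 (chr11:58954048-58956830), and the lone Hist4 gene was below the floor. Just inside the floor was the pseudogene Hist3h2bb-ps, with 16 and 11 counts in its best libraries, and just outside it was Hist4h4, with at most 9. A total of 25 genes reached 10 counts in all 20 libraries. Another 4 (Hist1h2aj, Hist1h2bl, Hist2h2bb and Hist3h2bb-ps) reached it only in libraries with ENPP1+ATP or AMP medium, so that their selection favored a difference in those groups.

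The study asked how the ectonucleotidase ENPP1, which hydrolyzes extracellular ATP to AMP, shapes signaling from cardiac myocytes to other heart cells. Neonatal rat ventricular myocytes (NRVMs) were given vehicle, ENPP1, ATP, ENPP1+ATP or AMP, and the myocyte conditioned medium (MCndM) was moved to wild-type CFs of C57BL/6 origin, which carry the SV40 antigen and had been kept serum free for a day. Each medium and time was represented by 2 libraries, and 15 libraries of NRVMs given the same 5 media for 24 hours (3 for each medium) were used for comparison. The control libraries are titled NC and are called vehicle here after the study's own description.
The CFs are thus an immortalized line and not primary cells, and the large SV40 antigen is known to bind p53 and RB. The study describes its replicates as biological, without saying for these libraries whether they were separate cultures, and p-values measure the spread between them.

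Replication-dependent histones package newly made DNA, and their mRNAs accumulate in S phase and are degraded when DNA synthesis stops. The genes sit in clusters and their stem-loop mRNAs are not spliced, although some annotated models hold several exons (5 for Hist1h2be and 2 for Hist1h2bc). Their mRNAs end in a conserved stem-loop instead of a poly(A) tail. The stem-loop binding protein SLBP holds this structure from 3′ end formation to translation and decay. Some of these genes can also be read past the stem-loop to a poly(A) site farther on, and such polyadenylated forms are known from cells that have left the cycle. How a library was made therefore decides which forms it holds, and whether poly(A) selection was used is not given in the sources used here.

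The stem-loops were read from the GENCODE vM21 transcript models on GRCm38, as 16 bases with a stem of 6 base pairs and a loop of 4 bases within 100 bases after the stop codon. Such an element was found in 40 of the 58 genes and in 64 of 22527 coding genes (0.284%). It took 8 forms, of which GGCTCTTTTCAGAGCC was in 21 genes, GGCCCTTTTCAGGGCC in 6 and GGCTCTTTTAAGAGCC in 6. The following sites are shown because they belong to genes described below with unlike responses, with the stem-loop in capitals and 5 bases on either side.
Hist1h2bj (chr13:22043633-22043658, plus strand): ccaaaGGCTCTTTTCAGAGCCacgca
Hist1h2bf (chr13:23573760-23573785, minus strand): ccaaaGGCTCTTTTCAGAGCCaccta
Hist1h2bk (chr13:22036295-22036320, plus strand): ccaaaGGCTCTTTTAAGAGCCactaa
Hist1h2be (chr13:23585526-23585551, minus strand): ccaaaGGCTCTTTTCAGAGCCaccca
Hist1h1e (chr13:23621777-23621802, minus strand): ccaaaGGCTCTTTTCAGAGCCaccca
Hist1h1c (chr13:23739507-23739532, plus strand): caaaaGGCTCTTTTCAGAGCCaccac
Hist2h3c2 (chr3:96238480-96238505, minus strand): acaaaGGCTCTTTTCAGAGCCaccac
Hist1h4i (chr13:22040961-22040986, minus strand): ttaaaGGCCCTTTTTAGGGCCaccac
The same element thus occurred in genes that moved in opposite directions. The models differed in what followed it. They ended 23 bases after the stem-loop in Hist1h2bj, 29 in Hist1h2bf and 30 in Hist1h2bk, but ran on for 840 bases in Hist1h1c, 1153 in Hist1h1e and 1861 in Hist1h2be. No such element was in the models of the other 18 genes. Of these, 12 (among them Hist1h4k and Hist1h2ah) had models that ended under 16 bases after the stop codon and 2 had no coding model, so that the element could not be found there. The other 4 ran on for 2192 bases (Hist2h2be), 742 (Hist1h2bc), 48 (Hist1h1a) and 37 (Hist2h3b). Where found, the element began 21 to 58 bases after the stop codon, so the models of Hist1h1a and Hist2h3b may also end too soon to hold it.

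Promoters were taken from RefSeq (GRCm38.p6), in which 51 of the 58 genes had an entry. In the 250 bases before the start, on either strand, the octamer ATTTGCAT, bound by the factor OCT1, was present in 11 of the 51 (21.6%) and in 1.6% of all 32851 promoters. The octamer was found in 5 of 12 H2B and 6 of 13 H2A promoters and in none of the other classes. The CCAAT box (CCAAT) was in 82.4% of the 51 and 33.8% of all promoters, the TATA box (TATAAA) in 49% and 12.4%, and the GC box (GGGCGG) in 31.4% and 32.7%. These letters are not sites shown to be bound. The 200 bases before the start are shown for 4 genes with unlike responses, with the found motifs in capitals, also where they lie on the opposite strand.
Hist1h2bj (chr13:22042998-22043197, plus strand): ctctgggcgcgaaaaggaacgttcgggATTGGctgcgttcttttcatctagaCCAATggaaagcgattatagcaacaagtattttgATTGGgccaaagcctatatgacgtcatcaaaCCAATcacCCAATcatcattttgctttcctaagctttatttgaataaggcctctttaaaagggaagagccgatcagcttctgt
Hist1h2bk (chr13:22035621-22035820, plus strand): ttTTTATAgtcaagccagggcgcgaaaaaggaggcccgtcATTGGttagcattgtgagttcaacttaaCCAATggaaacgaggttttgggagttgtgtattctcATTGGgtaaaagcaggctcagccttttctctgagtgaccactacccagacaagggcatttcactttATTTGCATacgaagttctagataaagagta
Hist1h1e (chr13:23622559-23622758, minus strand): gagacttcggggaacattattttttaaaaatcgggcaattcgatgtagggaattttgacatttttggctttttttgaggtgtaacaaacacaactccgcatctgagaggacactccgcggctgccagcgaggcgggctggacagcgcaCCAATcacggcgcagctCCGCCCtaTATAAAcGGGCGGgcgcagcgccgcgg
Hist1h1c (chr13:23738607-23738806, plus strand): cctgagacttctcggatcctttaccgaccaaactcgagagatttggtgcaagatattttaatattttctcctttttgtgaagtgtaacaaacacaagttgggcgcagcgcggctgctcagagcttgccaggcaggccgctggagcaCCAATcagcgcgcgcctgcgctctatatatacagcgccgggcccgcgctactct
The Hist1h2bj promoter held 5 CCAAT boxes and the Hist1h2bk promoter 3 with an octamer 30 bases before the start. The promoters of the linker histones Hist1h1e and Hist1h1c held 1 CCAAT box each.

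CF libraries held 32184799 to 115824659 counts, with a median of 43133824.5 and the highest total in vehicle replicate 1 at 24 hours. Fibroblast markers summed to between 4214 and 9876 CPM (each count scaled to its library total), although Thy1 was under 1 CPM in all libraries. They were lower with ENPP1+ATP or AMP MCndM at 24 hours (4214 to 5039 CPM) than with vehicle MCndM (9335 to 9876 CPM). At 48 hours they were at 5796 to 6226 CPM with these 2 media and at 9228 to 9755 CPM with vehicle MCndM. With ATP MCndM they were at 7271 to 7640 CPM at 24 hours and at 8749 to 8856 CPM at 48 hours. Not every fibroblast marker followed the sum. At 24 hours Dcn was at 12.58 and 12.97 CPM with vehicle, 19.43 and 19.75 with ENPP1+ATP and 17.21 and 17.76 with AMP. At 48 hours, in the same order, Dcn was at 15.25 and 15.61, 24.36 and 23.75, and 19.75 and 23.36 CPM. Vim was lower at 24 hours and higher at 48 hours (1736 and 1723, 1963 and 2038, and 2019 and 2011 CPM). Col1a1, Col1a2, Col3a1, Pdgfra, Pdgfrb, Tcf21 and Postn were lower with both media at both times. Macrophage markers (6 genes) summed to 7.99 to 8.49 CPM with vehicle MCndM at 24 hours and to 26.1 to 52.3 CPM with ENPP1+ATP or AMP MCndM, and at 48 hours to 9.3 to 9.35 and 59.5 to 73.2 CPM. The defining markers Adgre1, Ptprc and C1qa stayed under 1 CPM in all libraries. Cardiomyocyte markers (10 genes, with Pln and Myl7 under 1 CPM) summed to at most 24.4 CPM, and endothelial markers (5 genes, with Pecam1 and Cdh5 under 1 CPM) to at most 6.33 CPM. Smooth muscle markers (5 genes, with Myh11 and Cnn1 under 1 CPM) summed to 72.3 to 77.4 CPM with vehicle, 31.4 to 35.5 CPM with ENPP1+ATP, 27.5 to 27.6 CPM with AMP and 29.3 to 30.5 CPM with ATP MCndM at 24 hours. At 48 hours they were at 89.8 to 90.0 CPM with vehicle, 87.9 to 88.6 CPM with ENPP1+ATP and 83.7 to 95.6 CPM with AMP MCndM. Acta2 made up most of these sums, at 76.2 and 71.1 CPM with vehicle and 28.9 and 33.1 CPM with ENPP1+ATP MCndM at 24 hours. Rgs5, Tagln and Cnn1 were higher with ENPP1+ATP than with vehicle MCndM at 24 hours, though at most at 1.155 CPM, and Myh11 overlapped. Of 5 RNAs that carry no or short poly(A) tails, mt-Rnr1, mt-Rnr2, Rn7sk and Rpph1 rose with both media at 48 hours, Rmrp did not pass the test (1.73 and 1.76, adjusted p = 0.0564 and 0.0539), and none passed at 24 hours. The mitochondrial rRNA mt-Rnr2 was at 1851 and 2098 CPM with vehicle, 18420 and 20280 CPM with ENPP1+ATP and 16040 and 12580 CPM with AMP MCndM (log2 fold changes 3.36 and 2.93, adjusted p = 0.00138 and 0.00316). Rn7sk, an RNA of RNA polymerase III, differed by log2 fold changes of 1.89 and 1.74 (adjusted p = 0.0154 and 0.0235). At 24 hours mt-Rnr2 differed between AMP replicates (11320 and 2808 CPM), as did some histone genes named below. The part of these values in the histone results was not tested. In bulk RNA, fewer cells in S phase and less mRNA per cell cannot be told apart.

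At 24 hours, 5 of 14 H2B and 5 of 11 H3 genes tested rose in CFs given ENPP1+ATP MCndM and 6 and 5 in those given AMP MCndM, where 5 of 12 H4 and 4 of 14 H2A genes rose as well. The shares of all genes tested that rose were 23.9% with ENPP1+ATP and 25.3% with AMP, and the H2A count was near the latter. Hist1h1c, by reads the most abundant H1 gene, fell. At 48 hours none of the H2B and H3 genes that rose was called higher, and Hist1h1c, Hist1h2bc and Hist2h3c2 were severalfold below vehicle. A change here is a log2 fold change from a model of all CF libraries (edgeR's quasi-likelihood test), ± its SE, with p-values adjusted over all 17879 genes tested and a threshold of 0.05. Of the 58 genes 57 were tested, since Hist3h2bb-ps did not pass the filter on low counts. With ENPP1+ATP MCndM at 24 hours 12 genes rose and 6 fell, against 23.9% of all genes tested that rose and 25.3% that fell. With AMP MCndM 21 rose and 3 fell, against 25.3% and 27.5%. With ENPP1+ATP MCndM at 48 hours 4 rose and 14 fell, against 20.8% and 24.4%, and with AMP MCndM 3 rose and 15 fell, against 21.1% and 22.9%. The median log2 fold change of the 57 was 0.51 with ENPP1+ATP and 0.82 with AMP MCndM at 24 hours, and -0.13 and -0.20 at 48 hours, whereas the median of all genes was between -0.03 and 0.00. Without the 3 tested genes that reached the floor only in ENPP1+ATP or AMP libraries, the counts of rises and falls were as above, and the medians of the other 54 were 0.48 and 0.79, and -0.19 and -0.28. Both media were compared with the same vehicle libraries. Against these libraries the median of the 57 at 24 hours was -0.25 with ENPP1 and -0.29 with ATP MCndM. At 48 hours it was -0.27 with ENPP1 and -0.55 with ATP MCndM, lower than with ENPP1+ATP or AMP.

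**Figure D1:**
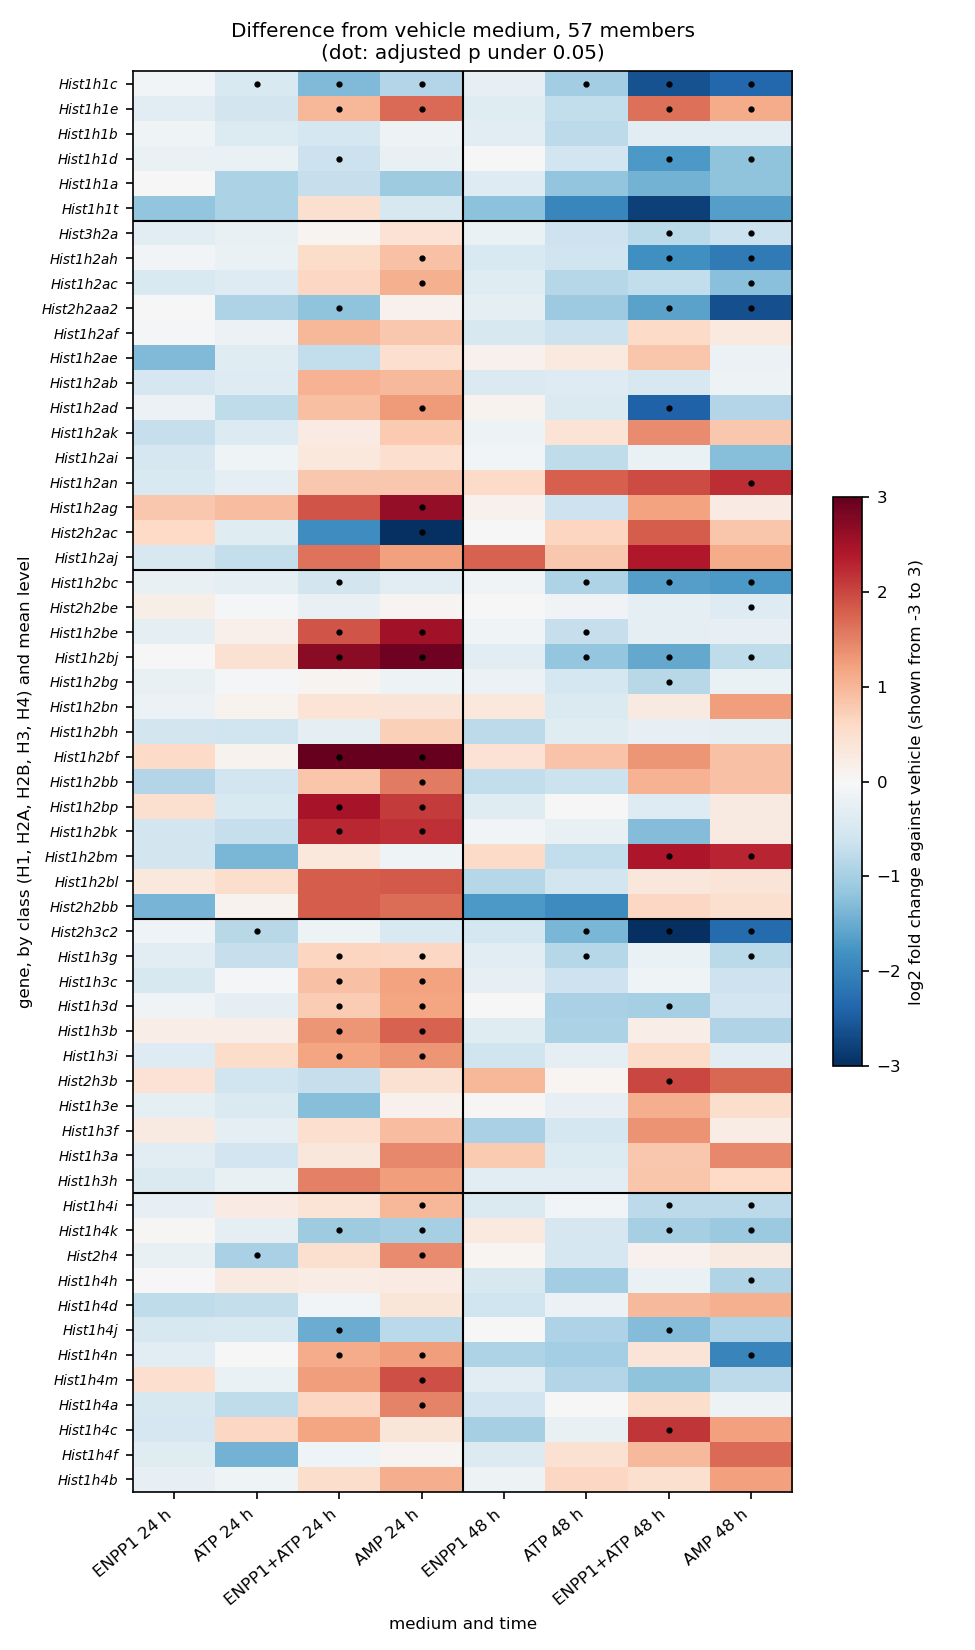
Log2 fold change against vehicle MCndM of the 57 genes tested (rows, by class and then from the highest to the lowest mean level), for 4 media at 24 hours (left) and 48 hours (right). A dot marks an adjusted p under 0.05: ENPP1 columns hold none, and the 12 rises with ENPP1+ATP at 24 hours lie mostly among H2B and H3 genes.

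Low counts limited many of these genes, as 20 were under 10 counts in every library of at least 1 group. Among the 20 genes with a mean of at least 50 counts, 6 rose and 4 fell with ENPP1+ATP and 10 rose and 2 fell with AMP MCndM at 24 hours. At 48 hours 1 rose and 11 fell with ENPP1+ATP, and 1 rose and 13 fell with AMP MCndM. The 12 rises with ENPP1+ATP at 24 hours became 5 without vehicle replicate 1 and 8 without ENPP1+ATP replicate 1, and the 6 falls became 3 without ENPP1+ATP replicate 1. The 21 rises with AMP MCndM became 10 without vehicle replicate 1. At 48 hours the 4 rises with ENPP1+ATP became 2 without either vehicle replicate and 9 without ENPP1+ATP replicate 1. The 3 rises with AMP became 0 without vehicle replicate 1, 1 without vehicle replicate 2 or AMP replicate 1 and 2 without AMP replicate 2, and its 15 falls became 10 without vehicle replicate 1. By class, 5 of 14 H2B genes and 5 of 11 H3 genes rose with ENPP1+ATP MCndM at 24 hours, with median log2 fold changes of 1.32 and 0.65. Of all genes tested, 23.9% rose. Of the other classes 1 of 6 H1, 0 of 14 H2A and 1 of 12 H4 genes rose. Without Hist1h2bl and Hist2h2bb, which reached the floor only in libraries with ENPP1+ATP or AMP medium, 5 of 12 H2B genes rose and their median was 0.61. With AMP MCndM 6 H2B, 5 H3, 5 H4, 4 H2A and 1 H1 gene rose, against 25.3% of all genes tested. The 14 falls of 57 genes with ENPP1+ATP MCndM at 48 hours, against 24.4% of all genes tested, comprised 4 H2A, 3 H2B, 3 H4, 2 H1 and 2 H3 genes.

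H1 proteins bind the linker DNA between nucleosomes, and their genes split by direction. Hist1h1c was at 86.2 and 81.9 CPM with vehicle, 30.2 and 39.4 CPM with ENPP1+ATP and 44.9 and 51.4 CPM with AMP MCndM at 24 hours. At 48 hours it was at 113.5 and 106.5 CPM with vehicle, 19.2 and 14.8 CPM with ENPP1+ATP and 22.4 and 18.4 CPM with AMP MCndM. Neither medium's libraries overlapped those with vehicle at either time, while ENPP1+ATP and AMP libraries overlapped each other at 48 hours. Hist1h1c fell by 1.33 ± 0.12 (adjusted p = 2.3e-07) and by 0.87 ± 0.12 (adjusted p = 1.46e-05) at 24 hours, and by 2.62 ± 0.13 (adjusted p = 2.13e-10) and by 2.36 ± 0.13 (adjusted p = 5.58e-10) at 48 hours. Hist1h1d, at 2.52 and 2.77 CPM with vehicle and 1.71 and 1.78 CPM with ENPP1+ATP MCndM at 24 hours, fell by 0.65 ± 0.22 (adjusted p = 0.0144). This call was lost without vehicle replicate 2 (adjusted p = 0.0914) and without either ENPP1+ATP replicate (adjusted p = 0.0868 and 0.0579). With AMP MCndM Hist1h1d was at 2.26 and 2.46 CPM at 24 hours, and the difference did not pass the test (-0.23 ± 0.21, adjusted p = 0.377). At 48 hours Hist1h1d was at 2.72 and 2.63 CPM with vehicle and 0.784 and 0.754 CPM with ENPP1+ATP MCndM, a fall by 1.73 ± 0.24 (adjusted p = 1.63e-06), and at 1.19 and 1.03 CPM with AMP, a fall by 1.20 ± 0.23 (adjusted p = 0.000108).

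Hist1h1e moved the other way. It was at 2.65 and 3.86 CPM with vehicle, 6.02 and 7.3 CPM with ENPP1+ATP and 11.5 and 10.2 CPM with AMP MCndM at 24 hours (1.01 ± 0.29, adjusted p = 0.00799 and 1.70 ± 0.29, adjusted p = 6.26e-05). At 48 hours it was at 2.29 and 2.63 CPM with vehicle, 6.3 and 8.47 CPM with ENPP1+ATP and 6.52 and 3.58 CPM with AMP MCndM (1.65 ± 0.31, adjusted p = 0.000184 and 1.10 ± 0.31, adjusted p = 0.00678). Hist1h1e thus rose at both times. The 24-hour call with ENPP1+ATP was lost without vehicle replicate 1 (0.72, adjusted p = 0.133) or ENPP1+ATP replicate 2 (0.86, adjusted p = 0.0687), and the 48-hour call with AMP was lost without AMP replicate 1 (0.62, adjusted p = 0.151) or vehicle replicate 1 (1.01, adjusted p = 0.0677). The models of Hist1h2be (chr13:23583670-23621124) and Hist1h1e (chr13:23620629-23622558) overlap on the minus strand, so that reads of the shared stretch may count for either. The remaining H1 genes Hist1h1a, Hist1h1b and the testis form Hist1h1t did not pass the test with either medium at either time.

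**Figure D2:**
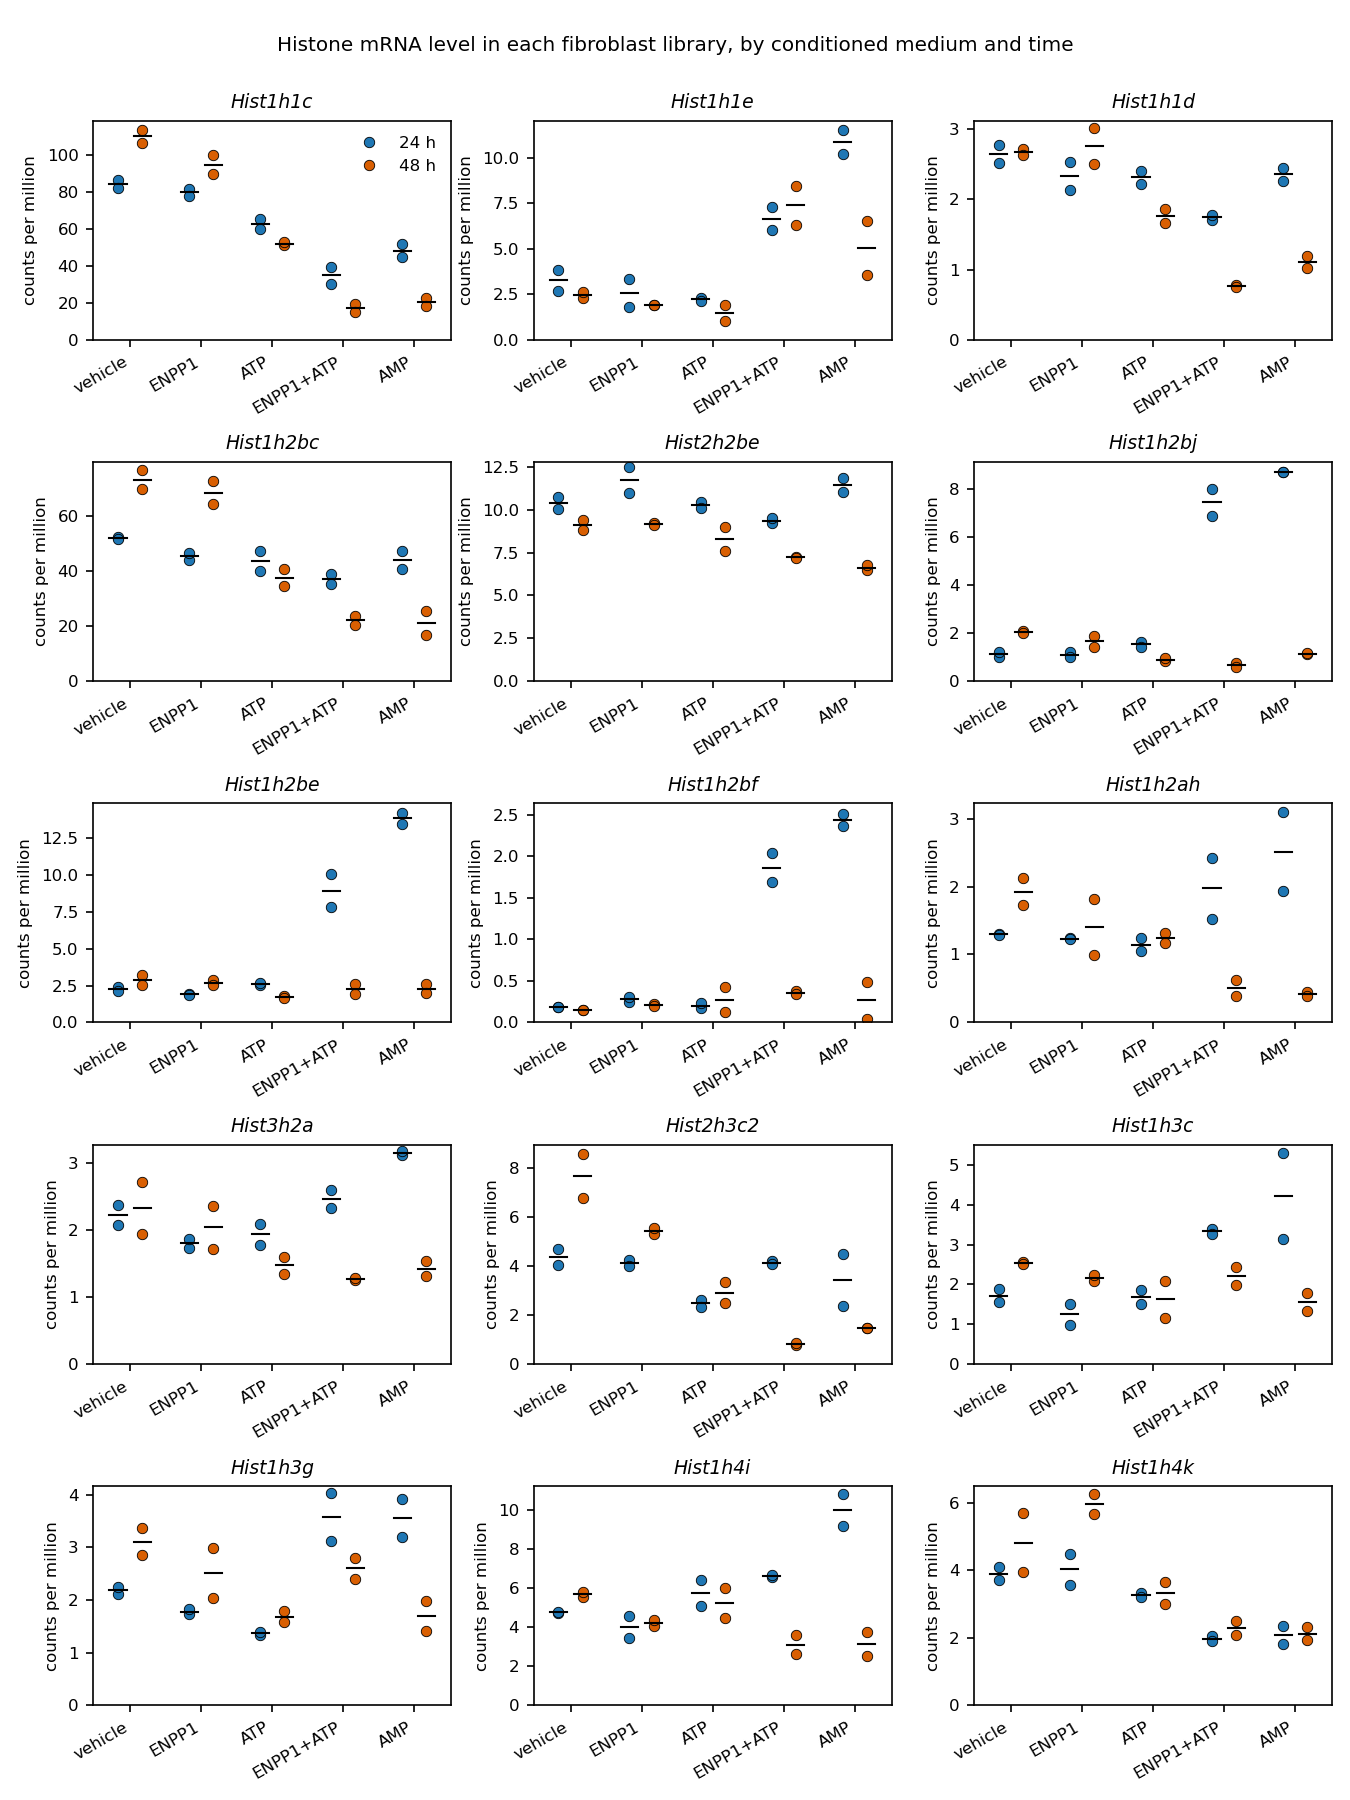
Level (CPM, linear axes from 0) of selected histone genes in each of the 20 CF libraries, by conditioned medium, with 24 hours and 48 hours in separate colors. Points are libraries and lines are means of 2, and Hist1h2bj is above 6.9 CPM in all 4 libraries with ENPP1+ATP or AMP MCndM at 24 hours and at or under 2.1 CPM in all others.

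H2B pairs with H2A in the nucleosome, and its genes held the highest fold changes at 24 hours. Hist1h2bj was at 1.01 and 1.22 CPM with vehicle, 8.02 and 6.91 CPM with ENPP1+ATP and 8.74 and 8.72 CPM with AMP MCndM (2.70 ± 0.21, adjusted p = 1.32e-10 and 2.92 ± 0.21, adjusted p = 2.34e-11). Hist1h2be was at 2.43 and 2.14 CPM with vehicle, 7.81 and 10.1 CPM with ENPP1+ATP and 14.2 and 13.4 CPM with AMP MCndM (1.90 ± 0.19, adjusted p = 5.41e-09 and 2.51 ± 0.19, adjusted p = 2.73e-11). Neither gene's groups overlapped. Hist1h2bf, Hist1h2bk and Hist1h2bp, singled out after their values were seen, rose from lower levels. Hist1h2bf was at 0.181 and 0.188 CPM with vehicle (21 and 8 counts), 1.69 and 2.03 CPM with ENPP1+ATP and 2.51 and 2.36 CPM with AMP MCndM (3.26 ± 0.57, adjusted p = 3.4e-05 and 3.64 ± 0.57, adjusted p = 6.94e-06). Hist1h2bk was at 0.104 and 0.329 CPM with vehicle and 1.16 and 0.832 CPM with ENPP1+ATP MCndM (2.27 ± 0.78, adjusted p = 0.0179). Hist1h2bp was at 0.225 and 0.306 CPM with vehicle and 1.21 and 1.78 CPM with ENPP1+ATP MCndM (2.47 ± 0.58, adjusted p = 0.00089).

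Hist1h2bc and Hist2h2be, the H2B genes with the most reads and known also as polyadenylated transcripts, did not share these rises. Hist1h2bc was at 52.7 and 51.7 CPM with vehicle, 38.8 and 35.5 CPM with ENPP1+ATP and 47.5 and 40.9 CPM with AMP MCndM at 24 hours. It fell by 0.55 ± 0.15 with ENPP1+ATP (adjusted p = 0.00793), a call lost without ENPP1+ATP replicate 2 (adjusted p = 0.0682), and its difference with AMP did not pass the test (-0.32 ± 0.15, adjusted p = 0.092). The AMP difference did pass without a filter on low counts (-0.36, adjusted p = 3.14e-06) and with 24-hour libraries fitted alone (-0.31, adjusted p = 0.00433). At 48 hours Hist1h2bc was at 76.9 and 70.0 CPM with vehicle, 23.7 and 20.4 CPM with ENPP1+ATP and 25.5 and 16.8 CPM with AMP MCndM. It fell by 1.66 ± 0.16 (adjusted p = 1.15e-06) and 1.73 ± 0.16 (adjusted p = 8.37e-07). Hist2h2be, at 10.1 and 10.7 CPM with vehicle, was at 9.2 and 9.49 CPM with ENPP1+ATP and 11 and 11.8 CPM with AMP MCndM at 24 hours, and neither difference passed the test (adjusted p = 0.115 and 0.597). At 48 hours Hist2h2be was at 9.41 and 8.81 CPM with vehicle and 7.24 and 7.2 CPM with ENPP1+ATP MCndM (-0.27, adjusted p = 0.0585), a difference that passed the test without a scaling factor (-0.34, adjusted p = 0.0171). It was at 6.47 and 6.75 CPM with AMP MCndM, a fall by 0.39 ± 0.11 (adjusted p = 0.00647) that was lost without AMP replicate 1 (adjusted p = 0.0525) or vehicle replicate 1 (adjusted p = 0.0737).

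None of the H2B genes that rose at 24 hours was called higher at 48 hours. Hist1h2bj was then at 2.1 and 2.00 CPM with vehicle, 0.74 and 0.598 CPM with ENPP1+ATP and 1.14 and 1.16 CPM with AMP MCndM (-1.54 ± 0.25, adjusted p = 1.2e-05 and -0.76 ± 0.23, adjusted p = 0.0078). The call with AMP was lost without vehicle replicate 1 (adjusted p = 0.0532) and when 48-hour libraries were fitted alone (adjusted p = 0.0548). Hist1h2be was at 3.23 and 2.51 CPM with vehicle, 1.91 and 2.6 CPM with ENPP1+ATP and 2.63 and 1.97 CPM with AMP MCndM, groups that overlapped (adjusted p = 0.266 and 0.331). Hist1h2bm was an H2B gene that rose at 48 hours, from 0.075 and 0.084 CPM with vehicle to 0.448 and 0.39 CPM with ENPP1+ATP MCndM (2.43 ± 0.74, adjusted p = 0.00903). It is named after its values were seen.

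Of the 14 H2A genes tested, none passed the test as higher with ENPP1+ATP MCndM at 24 hours, although 11 had a positive log2 fold change (median 0.58) and 4 an unadjusted p under 0.05, and only the Hist2 gene Hist2h2aa2 fell (-1.21 ± 0.44, adjusted p = 0.0258). The 11 and the median include Hist1h2aj (1.64, adjusted p = 0.235). Its selection favored a rise, as it reached the floor only in libraries with ENPP1+ATP or AMP medium. All 50-base windows of Hist2h2aa2 recur in other genes, so its reads are uncertain. Hist1h2ah was at 1.3 and 1.29 CPM with vehicle, 2.42 and 1.53 CPM with ENPP1+ATP and 3.09 and 1.93 CPM with AMP MCndM. Its difference passed the test with AMP (0.87 ± 0.32, adjusted p = 0.0235) and not with ENPP1+ATP (0.54 ± 0.32, adjusted p = 0.174). The AMP call was lost without AMP replicate 1 (0.51, adjusted p = 0.26), vehicle replicate 1 (adjusted p = 0.113) or vehicle replicate 2 (adjusted p = 0.0875). At 48 hours Hist1h2ah was at 2.12 and 1.73 CPM with vehicle, 0.627 and 0.39 CPM with ENPP1+ATP and 0.442 and 0.393 CPM with AMP MCndM, falls by 1.83 ± 0.36 (adjusted p = 0.000166) and 2.13 ± 0.37 (adjusted p = 3.67e-05). Of the 50-base windows of Hist1h2ah 90.7% recur in other genes. Hist3h2a, from the small Hist3 cluster, was at 2.07 and 2.37 CPM with vehicle and 2.32 and 2.59 CPM with ENPP1+ATP MCndM at 24 hours, which overlapped (0.09, adjusted p = 0.784). At 48 hours it was at 2.71 and 1.94 CPM with vehicle, 1.26 and 1.27 CPM with ENPP1+ATP and 1.3 and 1.53 CPM with AMP MCndM (-0.81 ± 0.25, adjusted p = 0.0102 and -0.64 ± 0.25, adjusted p = 0.0372). Both calls were lost without vehicle replicate 1 (-0.55, adjusted p = 0.191 and -0.38, adjusted p = 0.397), and the AMP call also without AMP replicate 1 (adjusted p = 0.194), without AMP replicate 2 (adjusted p = 0.0663) with DESeq2 (adjusted p = 0.0528), without a filter on low counts (adjusted p = 0.0714) and with 48-hour libraries fitted alone (adjusted p = 0.0922).

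H3 carries many of the histone marks, and 5 of its 11 genes rose with each medium at 24 hours, against 23.9% (ENPP1+ATP) and 25.3% (AMP) of all genes tested. Hist1h3c was at 1.87 and 1.55 CPM with vehicle, 3.4 and 3.28 CPM with ENPP1+ATP and 5.3 and 3.14 CPM with AMP MCndM (0.89 ± 0.28, adjusted p = 0.0112 and 1.20 ± 0.28, adjusted p = 0.000785). Hist1h3g was at 2.12 and 2.26 CPM with vehicle, 4.03 and 3.12 CPM with ENPP1+ATP and 3.92 and 3.2 CPM with AMP MCndM (0.65 ± 0.23, adjusted p = 0.0213 and 0.63 ± 0.23, adjusted p = 0.0229). Treated libraries of both genes lay above those with vehicle, but 3 of the 4 calls were lost when 1 library was left out. That of Hist1h3c with ENPP1+ATP was lost without ENPP1+ATP replicate 1 (adjusted p = 0.0523) or vehicle replicate 2 (adjusted p = 0.0868). Those of Hist1h3g were lost with ENPP1+ATP without ENPP1+ATP replicate 1 (0.47, adjusted p = 0.216) or either vehicle replicate (adjusted p = 0.14 and 0.0642), and with AMP without AMP replicate 1 (adjusted p = 0.147) or either vehicle replicate (adjusted p = 0.15 and 0.0689), and without a filter on low counts (adjusted p = 0.0562). Hist1h3b, Hist1h3d and Hist1h3i, named after their values were seen, were the other H3 genes that rose with ENPP1+ATP MCndM (1.31 ± 0.41, 0.75 ± 0.31 and 1.18 ± 0.44).

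Hist2h3c2, in the Hist2 cluster, showed no rise at 24 hours and the largest fall of the named genes at 48 hours with ENPP1+ATP MCndM. It was at 4.68 and 4.02 CPM with vehicle, 4.18 and 4.07 CPM with ENPP1+ATP and 4.5 and 2.38 CPM with AMP MCndM at 24 hours, and these groups overlapped (adjusted p = 0.618 and 0.0865). Without AMP replicate 1 the AMP difference passed the test (-0.95, adjusted p = 0.00095), as it did without a filter on low counts (-0.50, adjusted p = 0.0447). Hist2h3c2 was at 8.57 and 6.76 CPM with vehicle, 0.784 and 0.832 CPM with ENPP1+ATP and 1.47 and 1.46 CPM with AMP MCndM at 48 hours. It fell by 3.17 ± 0.26 (adjusted p = 3.01e-10) and by 2.31 ± 0.24 (adjusted p = 1.61e-08). Of its 50-base windows 63.5% recur in other genes. At 48 hours Hist1h3c was at 2.56 and 2.51 CPM with vehicle and 1.97 and 2.44 CPM with ENPP1+ATP MCndM, a difference that did not pass the test. Hist1h3g was then at 2.86 and 3.37 CPM with vehicle and 1.98 and 1.42 CPM with AMP MCndM, a fall by 0.80 ± 0.24 (adjusted p = 0.00806) that was lost without AMP replicate 2 (adjusted p = 0.131) or vehicle replicate 2 (adjusted p = 0.0852).

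H4 proteins of the different genes are alike, yet the H4 mRNAs differed in direction. Hist1h4i was at 4.72 and 4.8 CPM with vehicle, 6.55 and 6.68 CPM with ENPP1+ATP and 10.8 and 9.15 CPM with AMP MCndM at 24 hours (0.41 ± 0.19, adjusted p = 0.0735 and 0.99 ± 0.18, adjusted p = 6.7e-05). The ENPP1+ATP difference passed the test without a scaling factor (0.48, adjusted p = 0.0396) and with 24-hour libraries fitted alone (0.42, adjusted p = 0.0344). At 48 hours it was at 5.54 and 5.79 CPM with vehicle, 3.59 and 2.63 CPM with ENPP1+ATP and 3.72 and 2.51 CPM with AMP MCndM, falls by 0.79 ± 0.20 with each medium (adjusted p = 0.00223 and 0.00221). The AMP call at 48 hours was lost without AMP replicate 2 (-0.53, adjusted p = 0.0805). Hist1h4k was lower at both times. It was at 4.09 and 3.71 CPM with vehicle, 2.04 and 1.89 CPM with ENPP1+ATP and 2.36 and 1.81 CPM with AMP MCndM at 24 hours (-1.05 ± 0.21, adjusted p = 0.000197 and -1.0 ± 0.21, adjusted p = 0.000247), and at 5.69 and 3.94, 2.49 and 2.08, and 1.93 and 2.31 CPM at 48 hours (-1.0 ± 0.21, adjusted p = 0.000339 and -1.11 ± 0.21, adjusted p = 0.000119). Hist2h4 rose with AMP MCndM at 24 hours (1.43 ± 0.27, adjusted p = 8.06e-05), from 1.48 and 1.95 CPM with vehicle to 6.36 and 3.31 CPM, and did not pass the test with ENPP1+ATP (adjusted p = 0.167).

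Reads of the family were concentrated in 2 genes. Hist1h1c and Hist1h2bc together held 69.5% and 66.5% of all member counts with vehicle MCndM at 24 hours, 43.2% and 44.5% with ENPP1+ATP and 41.3% and 45.5% with AMP. The 58 genes summed to 199.9 and 201 CPM with vehicle, 159.9 and 168 CPM with ENPP1+ATP and 224 and 203 CPM with AMP MCndM at 24 hours. The other 56 genes summed to 61.0 and 67.4 CPM with vehicle, 90.9 and 93.5 CPM with ENPP1+ATP and 131 and 110.5 CPM with AMP MCndM. The sum of all and the sum of the 56 therefore differed in direction with ENPP1+ATP, with log2 ratios to vehicle of -0.29 and 0.52 (SD between replicates 0.04 and 0.07). At 48 hours both sums were lower. All 58 summed to 268 and 247.5 CPM with vehicle, 97.7 and 96.6 CPM with ENPP1+ATP and 106.5 and 81.2 CPM with AMP MCndM, and the other 56 to 77.3 and 71.0, 54.7 and 61.4, and 58.6 and 46.0 CPM. Per kilobase of exon, the mean level over all CF libraries was 38.7 CPM for Hist1h1c and 38.6 CPM for Hist1h2bc, followed by 10.8 CPM for Hist1h4k and 7.22 CPM for Hist1h4i. These means pool media and times among which genes differed in direction, so the order need not hold within each group.

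**Figure D3:**
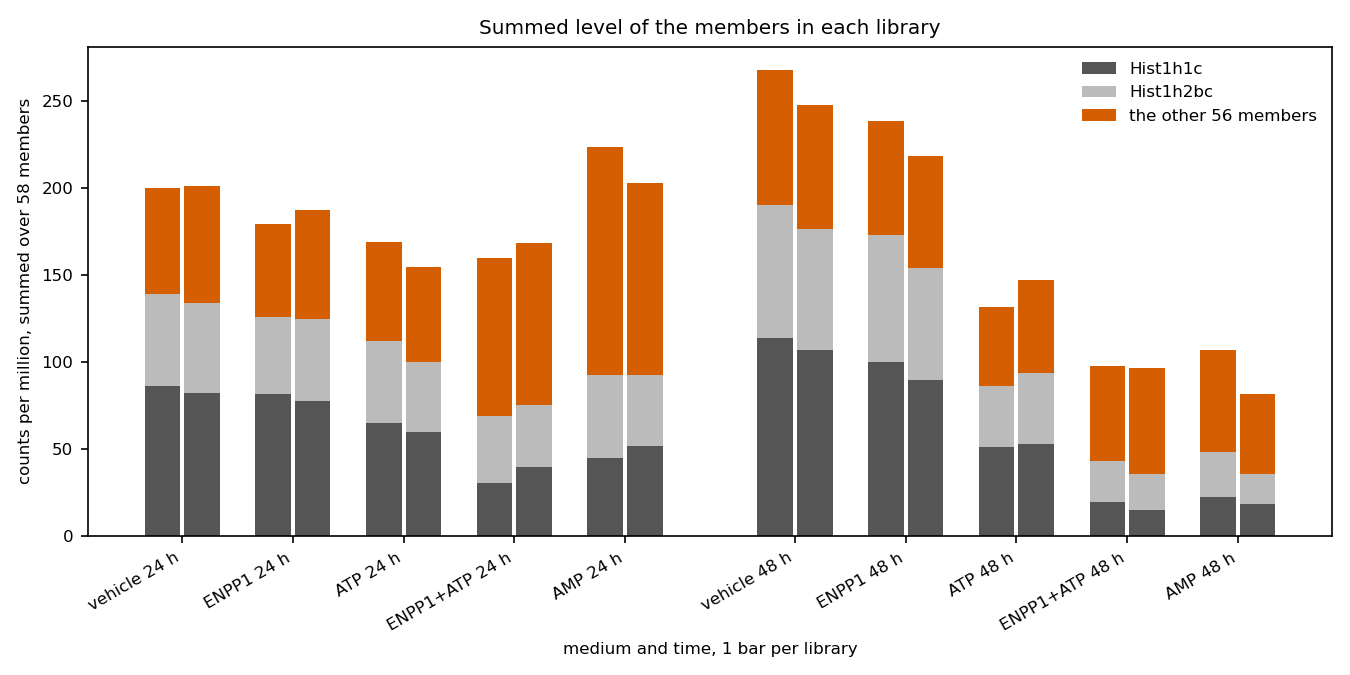
Summed level of the 58 genes (CPM) in each CF library, 2 bars for each medium and time, with Hist1h1c and Hist1h2bc set apart from the other genes. The bars fall from 268 and 247.5 CPM with vehicle to 97.7 and 96.6 CPM with ENPP1+ATP MCndM at 48 hours, while at 24 hours the share of the 2 genes shrinks and that of the others grows.

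ENPP1 and ATP MCndM served as controls for the combination. With ENPP1 MCndM no gene of the family passed the test at 24 hours (0% of all genes higher and 0% lower), with DESeq2 none either and 1 at an unadjusted p under 0.05. The same held at 48 hours (0% and 0%), with none by DESeq2 and 2 at an unadjusted p under 0.05. For Hist1h2bj, at 1.19 and 1.02 CPM with ENPP1 MCndM at 24 hours, the 95% interval of the log2 fold change was -0.50 to 0.48. For Hist1h1c, at 81.5 and 77.6 CPM, it was -0.34 to 0.16. With ATP MCndM at 24 hours none rose and 3 fell (Hist1h1c, Hist2h3c2 and Hist2h4), against 4.77% of all genes higher and 6.32% lower, and leaving out any 1 library left at most 1 fall. At 48 hours none rose and 6 fell, against 5.35% and 2.48%, and the 6 became 3 without ATP replicate 1 and 4 without ATP replicate 2 or vehicle replicate 1. DESeq2 gave the same counts, no rise with 3 and 6 falls. By edgeR 5 and 19 genes had an unadjusted p under 0.05. The log2 fold change was negative in 44 and 48 of the 57 genes with ATP MCndM at 24 and 48 hours. With ENPP1 MCndM it was negative in 45 and 41. Among the 20 genes with a mean of at least 50 counts, all 20 were negative with ATP MCndM at 48 hours (median -0.705). With ENPP1+ATP MCndM 18 of these were (median -0.80). Hist1h1c was at 51.2 and 52.6 CPM with ATP MCndM at 48 hours, between vehicle and ENPP1+ATP (-1.05 ± 0.12, adjusted p = 3.49e-05).

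Compared with ATP MCndM directly, ENPP1+ATP MCndM at 24 hours gave 20 genes higher and 2 lower (21.8% and 22.1% of all genes), and at 48 hours 9 higher and 7 lower (18.2% and 21.3%). The 20 became 11 without ATP replicate 2, and the 9 became 1 without ATP replicate 1. Hist1h2bj, at 1.64 and 1.43 CPM with ATP MCndM at 24 hours, was higher with ENPP1+ATP by 2.24 ± 0.21 (adjusted p = 5.24e-09). Hist1h1e was higher at both times, by 1.55 ± 0.31 (adjusted p = 0.000465) and 2.38 ± 0.33 (adjusted p = 9.2e-06). Between AMP and ENPP1+ATP MCndM few genes of the family differed past the test. At 24 hours 41 of the 57 had a positive log2 fold change with AMP against ENPP1+ATP (median 0.33, and -0.00089 for all genes tested). At 48 hours 24 of the 57 had a positive value (median -0.10). At 24 hours Hist1h1c, Hist1h2be and Hist2h4 were higher with AMP (0.46 ± 0.12, 0.62 ± 0.17 and 0.95 ± 0.27, adjusted p = 0.0424, 0.033 and 0.0354) and none lower, against 2.6% and 3.65% of all genes. Without AMP replicate 1 or ENPP1+ATP replicate 1 none was higher, and 1 was lower without AMP replicate 1. At 48 hours none passed the test in either direction, against 0.0895% and 0.0727% of all genes, with 7 at an unadjusted p under 0.05 and 1 lower by DESeq2.

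The effect of a medium differed between the times for many of the genes. For ENPP1+ATP, 14 genes had a lower log2 fold change at 48 hours than at 24 hours and none a higher (14.9% and 15.1% of all genes), and for AMP 22 a lower and 1 a higher (14.4% and 17.3%). DESeq2 likewise gave 14 lower and none higher for ENPP1+ATP, but by edgeR the 14 became 9 without vehicle replicate 1 at 24 hours. The difference was -4.24 for Hist1h2bj (adjusted p = 7.46e-10), -3.03 for Hist2h3c2 (adjusted p = 2.68e-07) and -2.19 for Hist1h2be (adjusted p = 1.1e-06) with ENPP1+ATP MCndM. It was not past the test for Hist1h1e (0.65, adjusted p = 0.281) or Hist1h4k (0.05, adjusted p = 0.926). Within vehicle MCndM 2 genes were higher at 48 hours and none lower (1.68% and 3.2% of all genes), Hist1h2bj (0.85, adjusted p = 0.0217) and Hist2h3c2 (0.76, adjusted p = 0.0348), and neither remained with any 1 library left out. Within ENPP1+ATP MCndM 2 were higher and 18 lower at 48 hours (19.5% and 21.2%), and within AMP MCndM 1 higher and 28 lower (22.3% and 20.8%). Time and the run or plate of the libraries cannot be told apart, as the labels give neither.

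**Figure D4:**
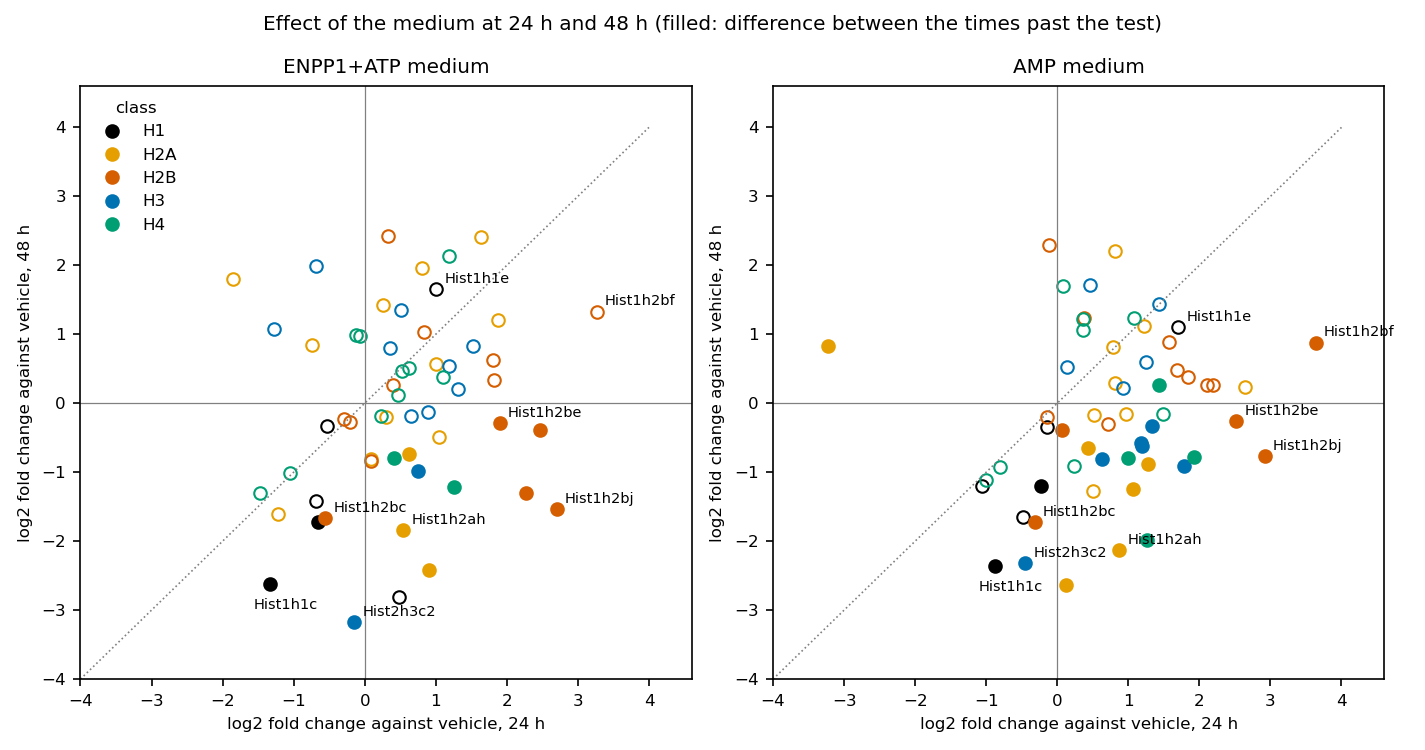
Log2 fold change against vehicle at 24 hours (x axis) and 48 hours (y axis) of each gene tested, for ENPP1+ATP (left) and AMP (right) MCndM, colored by class. Filled points are genes whose effect differed between the times past the test (14 lower at 48 hours with ENPP1+ATP, and 22 lower and 1 higher with AMP), and Hist1h2bj stands at 2.70 and -1.54 in the left panel. The dotted line marks equal effects.

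Members were also grouped by the annotated end of their models, which the selection did not use. Of 19 genes whose model ended within 60 bases after the stem-loop, 7 rose and 1 fell with ENPP1+ATP MCndM at 24 hours (median log2 fold change 0.90), and 11 rose and 1 fell with AMP (median 1.28). Of 21 genes whose model ran farther, 4 rose and 3 fell with ENPP1+ATP (median 0.41) and 8 rose and 1 fell with AMP (median 0.52). Genes without the element in the model are not counted as a group, as most of these models ended too soon to hold it. Of all genes tested, 23.9% rose and 25.3% fell with ENPP1+ATP and 25.3% and 27.5% with AMP. At 48 hours 3 of 19 and 8 of 21 genes of these groups fell with ENPP1+ATP MCndM and 5 and 6 with AMP, against 24.4% and 22.9% of all genes. The groups differ in expression level and class, and their difference was not tested.

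Many H2A and H2B genes start back to back, and 11 such pairs lay with starts at most 500 bases apart. Partners passed the test together in some pairs and not in others. With AMP MCndM at 24 hours Hist1h2bj and Hist1h2ag rose together (2.92, and 2.64 with adjusted p = 0.0429), as did Hist1h2bf and Hist1h2ad (3.64, and 1.28 with adjusted p = 0.0256) and Hist1h2bk and Hist1h2ah (2.20 and 0.87). Hist1h2ag had only 8 and 3 counts with vehicle and 16 and 39 with AMP MCndM. It reached 10 counts in 5 libraries with ENPP1+ATP or AMP medium and in 1 other, so that its selection favored a rise. Of its 50-base windows 78.9% recur in other genes. At 48 hours Hist1h2bc and Hist1h2ac fell together with AMP (by 1.73, and by 1.25 with adjusted p = 0.0029). With ENPP1+ATP MCndM at 24 hours Hist1h2bf rose by 3.26, while Hist1h2ad, 185 bases away, stood at 0.90 (adjusted p = 0.13). At 48 hours Hist1h2ad fell by 2.42 (adjusted p = 0.00243) and Hist1h2bf stood at 1.33 (adjusted p = 0.113). Hist1h2bc fell with ENPP1+ATP MCndM at 24 hours, and Hist1h2ac, 251 bases away, stood at 0.62 (adjusted p = 0.0882) and rose with AMP by 1.06 ± 0.29 (adjusted p = 0.00336). Hist1h2bk rose by 2.27 and its partner Hist1h2ah stood at 0.54 (adjusted p = 0.174). The difference between partners was not tested. Such genes share sequence, and 51 of the 58 had over 10% of their 50-base windows in common with another gene. The share was 90.7% for Hist1h2ah, 74.2% for Hist1h2bk, 71.5% for Hist1h4k, 65.8% for Hist1h2bf, 59.4% for Hist1h2bj and 8.54% for Hist1h1c. How reads that fit several genes were counted is not given in the sources used here. In addition, 17 genes overlap a gene on the opposite strand and 5 one on their own strand.

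Genes that make and handle histone mRNA, were taken as a list of 27. With ENPP1+ATP MCndM at 24 hours 14 rose and 3 fell, where 23.9% and 25.3% of all genes tested did, and with AMP 11 rose and 5 fell (25.3% and 27.5%). At 48 hours 4 rose and 4 fell with ENPP1+ATP (20.8% and 24.4%), and 4 rose and 5 fell with AMP (21.1% and 22.9%). Slbp was at 164 and 163 CPM with vehicle, 326 and 293 CPM with ENPP1+ATP and 308 and 262.5 CPM with AMP MCndM at 24 hours (0.86 ± 0.06, adjusted p = 7.55e-12 and 0.73 ± 0.06, adjusted p = 1.03e-10). At 48 hours it was at 198 and 202 CPM with vehicle and 199 and 191 CPM with ENPP1+ATP MCndM (0.04 ± 0.06, adjusted p = 0.657), and the effect differed between the times (-0.83 ± 0.08, adjusted p = 3.68e-08). Npat, the coactivator of histone gene transcription, rose by smaller amounts at both times (0.21 ± 0.05, adjusted p = 0.00139 and 0.32 ± 0.05, adjusted p = 1.45e-05 with ENPP1+ATP). Casp8ap2, another factor of the histone locus body, did not pass the test with ENPP1+ATP at 24 hours (-0.04, adjusted p = 0.63) and fell with AMP (-0.19, adjusted p = 0.0092). Cyclin E2 (Ccne2) and E2f1, which drive entry into S phase, rose with ENPP1+ATP at 24 hours (0.76 and 0.55) and did not pass the test at 48 hours (0.10 and 0.05).

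Of 24 genes of DNA synthesis 17 rose and 2 fell with ENPP1+ATP MCndM at 24 hours, and 7 rose and 5 fell at 48 hours (median log2 fold changes 0.40 and 0.07). For this and the following lists, the shares of all genes tested were 23.9% higher and 25.3% lower at 24 hours and 20.8% and 24.4% at 48 hours. Rrm2, a subunit of ribonucleotide reductase, was at 83.2 and 80.2 CPM with vehicle and 269 and 244 CPM with ENPP1+ATP MCndM at 24 hours (1.59 ± 0.06, adjusted p = 1.77e-15), and stayed higher at 48 hours (1.23 ± 0.06, adjusted p = 7.36e-14). Pole, the leading-strand polymerase, rose by 1.01 and then by 0.15, and cyclin A2 (Ccna2) rose by 0.94 and then stood at 0.12 (adjusted p = 0.0503). Of 22 histone chaperones 10 rose and 7 fell at 24 hours, with Asf1b, which hands H3 and H4 to the replication fork, up (0.92 ± 0.06, adjusted p = 9.92e-13) and Daxx, a chaperone of H3.3, down (-0.81 ± 0.10, adjusted p = 4.74e-06). Of 11 replication-independent histone genes 5 rose and 5 fell at 24 hours and 2 rose and 7 fell at 48 hours. H1f0, the H1 of resting cells, fell by 0.80 ± 0.06 and by 1.28 ± 0.06 (adjusted p = 4.86e-11 and 1.1e-14), and H2afx, which marks DNA breaks once phosphorylated, rose by 0.96 ± 0.08 and then fell by 0.27 ± 0.08 (adjusted p = 6.89e-09 and 0.0107). Of 8 p53 response genes 7 rose with ENPP1+ATP at 24 hours. The cell cycle inhibitor Cdkn1a, at 113 and 128 CPM with vehicle and 474 and 508 CPM with ENPP1+ATP MCndM, rose by 1.97 ± 0.14 (adjusted p = 2.31e-07) and stayed higher at 48 hours (2.30 ± 0.14, adjusted p = 6.97e-08).

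**Figure D5:**
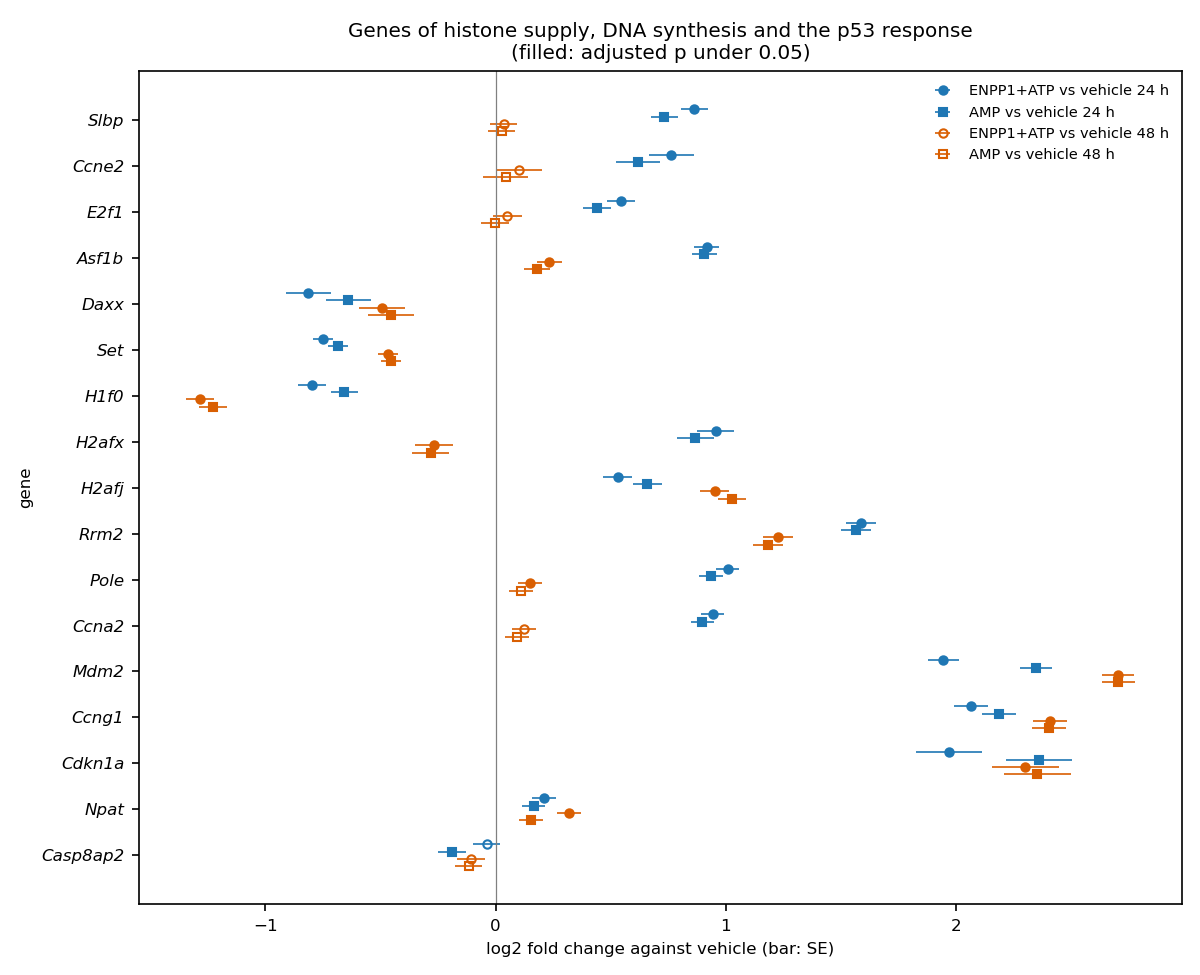
Log2 fold change against vehicle (points, with SE) of genes that make, handle or accompany histones, for ENPP1+ATP and AMP MCndM at 24 and 48 hours. Filled points passed the test: Slbp stands at 0.86 and 0.73 at 24 hours and at 0.04 and 0.03 at 48 hours.

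In NRVMs, which hardly divide, the same rule kept 19 rat histone genes, of which 18 were tested among 13461 genes in libraries of 13481389 to 16977980 counts. With ENPP1+ATP MCndM none rose and 7 fell, against 28.6% of all genes higher and 27.4% lower, and with AMP none rose and 7 fell, against 29.2% and 28%. DESeq2 called no rise and 6 falls with each. Of the rat genes 8 and 9 had an unadjusted p under 0.05. Hist1h1c was at 156, 158 and 154 CPM with vehicle, 53.7, 50.6 and 55.5 CPM with ENPP1+ATP and 30.7, 45.3 and 46.4 CPM with AMP MCndM (-1.61 ± 0.10, adjusted p = 4.63e-09 and -1.94 ± 0.10, adjusted p = 7.3e-10). It was at 36.4, 37.1 and 37.3 CPM with ATP and 151, 146 and 152 CPM with ENPP1 MCndM, so that the ATP libraries lay with the treated ones. Hist1h1d, at 6.7, 8.31 and 5.56 CPM with vehicle and 2.5, 2.67 and 2.1 CPM with ENPP1+ATP MCndM, fell by 1.56 ± 0.20, and Hist2h3c2, at 7.5, 6.35 and 6.97 CPM with vehicle and 3.58, 3.91 and 3.28 CPM with ENPP1+ATP, by 1.01 ± 0.18. The CF and NRVM tables were tested separately, and the difference between the cell types was not tested.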

How the data were processed

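The authors deposited raw counts per gene symbol for CFs and NRVMs, made after alignment to mm10 or rn6. The submitters' processing notes list STAR 2.5.3a with these builds. The read counter, annotation, use of strand and poly(A) selection are not given in the sources used here. Groups were taken from the sample titles, and 0 columns of per-sample values were left out. The 2 single-cell libraries were not used here.

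Models were fitted to the counts with edgeR 4.0.16 under R 4.3.3 (filterByExpr by group, TMM scaling, robust quasi-likelihood fit with 1 mean per medium and time over all 20 CF or 15 NRVM libraries) and Benjamini-Hochberg adjustment over all genes tested. Between replicates, the biological coefficient of variation estimated by edgeR was 0.059 for CF and 0.0499 for NRVM libraries. Levels are CPM, scaled to the library total, and fold changes are from the scaled fit. The code was tested on simulated data. DESeq2 1.42.0, other scalings and filters, a replicate block and leaving out each library were the alternatives. Leaving out the genes that reached the floor only with ENPP1+ATP or AMP was added after seeing the data. No replicate pair agreed within sampling noise (chi-square per degree of freedom 6.34 to 36.5). Stem-loops, overlaps and motifs were found in Python 3.11.15 in GENCODE vM21 and RefSeq tables.

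The genes, gene lists, named genes and markers were chosen with earlier results of these data known. Named with values were, in each class, the 2 genes with the highest mean CPM, the 4 largest rises and falls with ENPP1+ATP at each time among those past the threshold with a mean of at least 50 counts, Hist1h1c, Hist1h2bc and Hist2h2be, and the genes next to the floor. Other genes given with values, such as Hist2h4 and Hist2h2aa2, fall outside these rules and were picked with their values known. Of each companion list up to 3 changes were named, with Slbp, Npat and Casp8ap2.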

Additional observations from a re-analysis of the deposited data

Results flagged for a closer look

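The effect of a medium on a gene was compared between 24 and 48 hours as a difference of log2 fold changes in 1 model. With ENPP1+ATP MCndM the difference passed the test with 0 genes higher and 14 lower at 48 hours, against 15.1% and 14.9% of all genes tested. The 14 became 9 without vehicle replicate 1 at 24 hours. Among the named genes it was -4.24 for Hist1h2bj, -3.03 for Hist2h3c2, -2.38 for Hist1h2ah, -2.19 for Hist1h2be, -1.29 for Hist1h1c, -1.21 for Hist1h4i, -1.11 for Hist1h2bc and -1.07 for Hist1h1d. These are of unlike kind, as Hist1h2bj went from above to below vehicle, Hist1h2be from above vehicle to a level that did not pass the test, and Hist1h1c and Hist1h2bc from below vehicle to farther below.

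With AMP MCndM 1 gene was higher and 22 were lower, against 17.3% and 14.4% of all genes tested. The named genes were Hist1h2bj (-3.68), Hist1h2ah (-3), Hist1h2be (-2.77), Hist2h3c2 (-1.86), Hist1h3c (-1.82), Hist1h4i (-1.79), Hist1h1c (-1.49), Hist1h3g (-1.43), Hist1h2bc (-1.41), Hist3h2a (-1.08), Hist1h1d (-0.975) and Hist2h2be (-0.463). Both sets of differences rest on the same vehicle libraries, and mt-Rnr2 rose with both media at 48 hours (log2 fold changes 3.36 and 2.93) and stood at 0.80 and 1.05 at 24 hours (adjusted p = 0.302 and 0.169), whose part in these differences was not tested.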

How the results depend on the processing

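Counts of genes past the test with ENPP1+ATP or AMP MCndM against vehicle stayed within 1.5 times under DESeq2, RLE or no scaling, the floor as the filter and each time fitted alone. Without a filter on low counts, AMP gave 5 falls at 24 hours in place of 3 and 6 rises at 48 hours in place of 3. Genes with a mean of at least 50 counts gave 6 and 10 rises at 24 hours, and 1 and 1 at 48 hours, with ENPP1+ATP and AMP. By DESeq2, 5 genes were higher with AMP than with ENPP1+ATP at 24 hours and 1 lower at 48 hours.

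With 1 library left out, ENPP1+ATP gave 5 to 8 rises and 3 to 5 falls at 24 hours and 2 to 9 rises and 10 to 15 falls at 48 hours, and AMP 10 to 21 and 2 to 4, and 0 to 2 and 10 to 15. ATP gave 0 to 1 falls at 24 hours and 3 to 5 at 48 hours. ENPP1+ATP against ATP gave 11 to 13 higher and 2 to 4 lower at 24 hours, and 1 to 9 and 4 to 9 at 48 hours. AMP against ENPP1+ATP gave 0 to 2 higher and 0 to 1 lower at 24 hours, and 0 to 1 and 0 to 0 at 48 hours. Between times, vehicle gave 0 to 0 higher, ENPP1+ATP 0 to 3 higher and 14 to 18 lower, and AMP 0 to 1 and 20 to 27. The differences of effects gave 0 to 2 higher and 9 to 15 lower for ENPP1+ATP, and 0 to 1 and 15 to 22 for AMP. In NRVMs 5 to 8 and 6 to 10 genes fell.

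The log2 ratios of the summed counts to vehicle without Hist1h1c were 0.153 (against -0.289, a change of sign), 0.499, -0.881 and -1.02 for ENPP1+ATP and AMP at 24 hours and then at 48 hours, and with TMM-scaled totals -0.351, 0.0156 and -1.34 for the first 3. With 1 library left out they were -0.326 to -0.251, 0.0168 to 0.158, -1.46 to -1.35 and -1.66 to -1.27. Of 224 named-gene results with 1 library left out, 29 lost their call and 2 that were not called changed sign: Hist3h2a with ENPP1+ATP at 24 hours (-0.023 without vehicle replicate 1, and at most 0.184 without another) and Hist1h3c with ENPP1+ATP at 48 hours (0.0335 without ENPP1+ATP replicate 1, and at least -0.299 without another). Under other settings 5 calls were lost, 4 of them of Hist3h2a or Hist1h2bj with AMP at 48 hours and 1 of Hist1h3g, and 6 were gained, of Hist1h4i, Hist1h2bc, Hist2h3c2 and Hist2h2be. The cause was not tested.

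Replicate numbers did not pair the libraries (2 of 20 pairs of groups correlated over 0.1). With the replicate number as a block, ENPP1+ATP gave 12 rises and 6 falls at 24 hours and 4 and 14 at 48 hours, and AMP 20 and 3, and 3 and 15. With 2 libraries a group and 20 of the 58 genes under 10 counts in every library of at least 1 group, a gene that did not pass the test is not shown to be unchanged.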
